A study of Homo sapiens with 8 samples.

Results

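HSC-5 is an established line of human cutaneous squamous cell carcinoma, a cancer of the keratinocytes of the skin. The RNA described here came from the unedited control cells of a CRISPR study of EZH2, and covered 2 of the 8 libraries of the series and 20177 genes whose exon length was known, of 20294 in the table. The libraries were chosen by their group label alone, and every gene was kept, whatever its value. Per the labels and the design text, HSC-5 cells were made to express Cas9 stably from a lentivirus. The control cells carried an empty vector, and the other 6 libraries came from cells with 1 of 2 guides against EZH2, each guide in 3 libraries. Selection of the guide carriers was with G418; whether the empty-vector cells went through the same selection is not given in the sources used here. All were grown in DMEM with serum, and their RNA was made into stranded, poly(A)-selected TruSeq libraries. The submitters left out another control library because it grouped apart from the rest, so the choice of the control libraries rested in part on their likeness. Nothing in the labels says that the 2 control libraries came from separate cultures, so the spread between them may be technical. No gene was tested between groups. A chi-square served only to check pairs of libraries within a group, and the levels of EZH2 are listed by group without a test.

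Stratified squamous epithelium is built from keratinocytes that divide in a basal layer and, as they leave it, exchange one set of keratins for another and assemble a cornified envelope. Keratins are filament proteins that pair a type I with a type II partner, and each layer and each kind of epithelium has its characteristic pairs: KRT5 with KRT14 or KRT15 in basal cells, KRT1 with KRT10 in the suprabasal epidermis, KRT4 with KRT13 in the lining of the mouth and oesophagus, KRT6 with KRT16 in wounded skin, and KRT8 with KRT18 in simple epithelium. EZH2 is the catalytic subunit of the Polycomb repressive complex PRC2, which methylates histone H3 and helps keep genes of other lineages silent.

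The control libraries held 14299479 and 15468597 counts, and the 8 libraries of the series between 12607952 and 15468597. Levels are given as TPM, which here means counts divided by the length of all exons of a gene and scaled to the same total in each library. Only such per-length values were set side by side between genes. A gene counted as expressed at 1 TPM or more in both libraries. Levels between 1 and 10 TPM are termed low, from 10 to 100 moderate, from 100 to 1000 high, and from 1000 very high. A gene with no count in either library is termed silent, with the limit that a count of 0 in both allows up to 3 counts, or 0.101 CPM over both. Such limits and the intervals below cover counting error only. EZH2, the gene targeted in the other groups, stood at 72.0 and 75.1 TPM in the controls, at 42.8 to 51.1 TPM in the libraries of the first guide and at 58.3 to 68.5 TPM in those of the second.

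Of the 20177 genes, 11722 (58.1%) were expressed and 4655 (23.1%) were silent. Most expressed genes were moderate, with 6839 genes (33.9%) between 10 and 100 TPM. High levels were found for 1716 genes and very high levels for 125, and these 125 genes, 0.62% of all, made up 31.5% of the TPM. The 10 most abundant genes held 4.02% of the counts, the top 100 held 16.2% and the top 1000 held 46.5%. The control libraries agreed closely: among expressed genes the median fold between them was 1.09, and 298 of them (2.54%) differed by more than 1.5-fold. None of the 125 very high genes did. The counts still differed by more than sampling noise, with a chi-square per degree of freedom of 6.44 against 2.12 to 9.42 for the other pairs within a group, so the libraries were not copies of one another. Some of the larger differences were in overlapping genes. BMI1, a Polycomb gene, had 17.2 and 36.0 TPM while the readthrough gene COMMD3-BMI1 had 36.7 and 14.2 TPM, so the division of reads between them was uncertain.

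The most abundant transcripts were those of respiration, glycolysis, translation and the cytoskeleton. MT-CO2, a mitochondrially encoded subunit of cytochrome oxidase, had the highest level, at 13573 and 14212 TPM. GAPDH, a glycolytic enzyme, reached 8861 and 8581 TPM. ACTB, cytoplasmic actin, had 6194 and 5855 TPM, and EEF1A1, a translation elongation factor, had 6221 and 6553 TPM. The other 11 of the top 15 were MT-CO3, MT-ATP6 and MT-CO1 of the respiratory chain, the ribosomal protein genes RPS2, RPL41, RPS27, RPS18 and RPL7A, FTH1 for ferritin, TUBA1B for tubulin and PPIA for cyclophilin, between 4342 and 9536 TPM on the mean of both libraries. GAPDH, FTH1 and TUBA1B overlap genes on the opposite strand in the annotation, and 63.2% of the 50-base stretches of RPS2 and 29.3% of those of EEF1A1 also occur elsewhere, most of them in a related copy. PPIA came to 8964 TPM on the median transcript length, an alternative chosen after seeing the data. Mitochondrially encoded genes took 1.53% and 1.70% of the counts, and ribosomal protein genes 6.75% and 6.24%.

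Promoters of expressed and silent genes differed in base composition, and 8 are shown. They span the range from KRT5, the keratin highest in TPM as defined here, to silent developmental genes. Each is the last 100 bases before the start site of the RefSeq table, build GRCh38.p14, on the strand of the gene. Capitals mark TATAA or ATAAA where its first base lay 20 to 40 bases before the start, read on the strand of the gene, and GGGCGG or its reverse complement CCGCCC anywhere in the stretch. TATAAA holds both of the first 2 motifs.
KRT5 (chr12:52520395-52520494, minus strand): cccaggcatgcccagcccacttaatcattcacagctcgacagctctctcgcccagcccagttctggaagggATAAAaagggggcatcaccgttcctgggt
KRT10 (chr17:40822615-40822714, minus strand): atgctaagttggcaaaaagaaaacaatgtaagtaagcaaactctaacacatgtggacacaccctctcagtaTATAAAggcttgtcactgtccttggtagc
KRT2 (chr12:52652212-52652311, minus strand): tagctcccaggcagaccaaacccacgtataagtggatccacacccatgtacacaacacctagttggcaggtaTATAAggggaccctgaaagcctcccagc
ELF3 (chr1:202010487-202010586, plus strand): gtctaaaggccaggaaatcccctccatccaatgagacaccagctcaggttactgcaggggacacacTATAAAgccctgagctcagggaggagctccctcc
EZH2 (chr7:148884292-148884391, minus strand): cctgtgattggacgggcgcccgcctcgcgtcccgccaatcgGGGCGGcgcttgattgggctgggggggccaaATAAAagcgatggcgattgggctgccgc
PERP (chr6:138107420-138107519, minus strand): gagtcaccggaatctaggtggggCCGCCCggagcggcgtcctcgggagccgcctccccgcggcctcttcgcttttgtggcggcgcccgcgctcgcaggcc
KIT (chr4:54657857-54657956, plus strand): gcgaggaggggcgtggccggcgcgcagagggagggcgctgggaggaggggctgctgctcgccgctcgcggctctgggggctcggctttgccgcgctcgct
PAX6 (chr11:31817962-31818061, minus strand): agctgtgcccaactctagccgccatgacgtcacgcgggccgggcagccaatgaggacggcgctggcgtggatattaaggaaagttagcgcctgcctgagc
The keratin promoters and that of ELF3 held the TATA-type motif and few CG pairs: in the 250 bases before the start there were 6 in KRT5, 0 in KRT10, 2 in KRT2 and 4 in ELF3. EZH2 had 38, PERP 34, KIT 34 and PAX6 22. EZH2 held the TATA-type motif as well, 28 bases before its start, and PERP, KIT and PAX6 did not. KRT5, at 2218 and 2108 TPM, and KRT2, with 0.0788 TPM in the first library and no count in the second, thus both had the motif, and KIT, silent here, was as rich in CG pairs as PERP, expressed at 316 and 403 TPM. The starts of KRT10 and KRT2 are not transcript starts in the annotation used for the lengths.

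A RefSeq promoter was matched for 15118 of the genes. A promoter counted as CpG-rich where its 250 bases held over 50% G and C and an observed to expected CpG ratio above 0.6. CpG-rich promoters made up 25.9% of those of silent genes, 40.2% below 1 TPM, 66.0% at low, 81.9% at moderate, 83.1% at high and 81.6% at very high levels, against 61.1% over all promoters. The TATA-type motif ran the other way up to the moderate level, at 17.9% of silent genes and 2.61% of moderate ones, and was found in 25 of the 98 very high genes (25.5%, 95% Wilson interval 17.9% to 35.0%), against 8.14% over all promoters. Those 25 included KRT5, S100A14, the annexins ANXA1 and ANXA2, the water and glycerol channel AQP3, the chaperone HSPA8 and the detoxifying enzyme GSTP1. Genes of translation were also among them, such as RPL24, RPS18, RPS27, RPLP0, EEF1A1 and EEF2. All of the 25 except KRT5, S100A14, ANXA1, RPS18 and RPS27 were CpG-rich. GGGCGG on either strand was found in 56.8% of all promoters. A match describes the letters only; nothing was measured of a factor binding there.

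**Figure D1:**
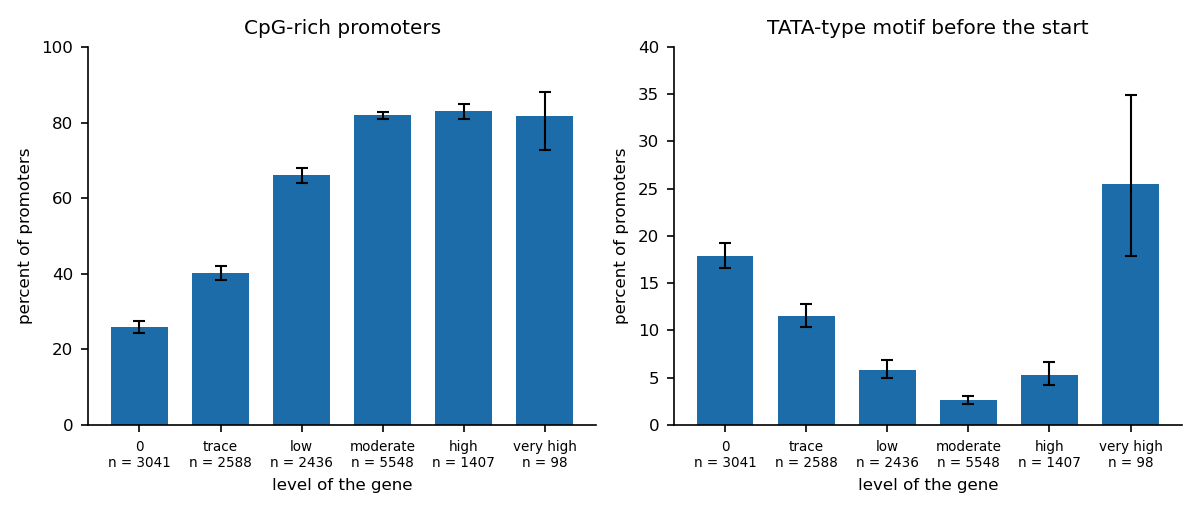
Percent of promoters (y axis) that were CpG-rich over 250 bases (left) or held TATAA or ATAAA 20 to 40 bases before the start (right), by the level of the gene in control HSC-5 cells (x axis), with 95% Wilson intervals as bars. The CpG-rich share is lowest in silent genes (25.9%) and the TATA-type share is lowest at moderate levels (2.61%).

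Among lineage markers, the control cells carried the keratinocyte set nearly complete. Of 22 keratinocyte core genes, 21 were expressed, with a median of 115 TPM against 4.88 TPM over all genes. This list and those below were written with earlier results of these data known, so their counts and medians are descriptions only. Each stands beside 58.1% of all genes expressed and 23.1% silent. SFN, an epithelial 14-3-3 protein, had 756 and 724 TPM. JUP, the junction protein plakoglobin, had 367 and 339 TPM, and PERP, a desmosomal membrane protein, had 316 and 403 TPM. TP63, the transcription factor that specifies stratified epithelium, had 85.1 and 97.4 TPM. The hemidesmosome genes ITGA6 (136 and 153 TPM), ITGB4 (119 and 103 TPM) and COL17A1 (105 and 94.5 TPM), which anchor basal cells to the basement membrane, lay close together. The 1 member below threshold was KRT14, at 0.683 and 0.858 TPM from 6 and 8 counts. With exon lengths taken as the median over annotated transcripts, TP63 came to 197 TPM, over 1.5 times its main value.

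Markers of most other cell types were absent or near 0. Of 12 fibroblast markers, 10 were silent, among them COL1A2, COL3A1, LUM and DCN of the stromal matrix and the receptors PDGFRA and PDGFRB. COL1A1 had 2.87 and 2.41 TPM, and THY1 had 0 and 0.119 TPM. Of 10 melanocyte markers, 7 were silent, including TYR and TYRP1 of pigment synthesis and the lineage factor SOX10. MITF, which is also made outside melanocytes, had 10.9 and 12.1 TPM, and PMEL, a melanosome protein, 3.13 and 2.14 TPM. MLANA, the remaining member, had 0.476 TPM in the first library and came to 1.77 TPM on the median transcript length. In the second library alone, 3 of the 10 melanocyte markers reached 1 TPM. Among 12 leukocyte markers, 6 were silent, including CD3E, MS4A1 and SPI1, and PTPRC, the pan-leukocyte phosphatase, had 0.102 and 0.144 TPM. CD68, a lysosomal protein, had 17.1 and 17.7 TPM, and LYZ, lysozyme, 2.47 and 1.82 TPM. An unnamed gene on the same strand overlaps 95.3% of the exon bases of CD68, and its part in the counts was not tested. On the median transcript length PTPRC came to 0.202 TPM and LYZ to 3.81 TPM. Because the samples are bulk RNA, a few cells of a type with much of a transcript and many cells with little of it cannot be told apart.

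The hepatocyte and gut list had 0 of 12 genes expressed and 9 silent, including ALB and VIL1. Of 12 neuronal and 12 muscle markers, 9 each were silent. The neuronal genes expressed were TUBB3, a tubulin, at 12.6 and 10.3 TPM and MAP2, a microtubule-binding protein, at 6.26 and 7.32 TPM, and the muscle gene expressed was ACTA2, smooth muscle actin, at 4.77 and 4.49 TPM. TUBB3 came to 31.0 TPM on the median and 17.3 TPM on the longest transcript length. An unnamed gene on the same strand, at 0 TPM in both libraries, overlaps 48.1% of the exon bases of TUBB3. The division of reads between them was not tested. Of 8 Merkel cell markers only ISL1, a LIM-homeobox factor, was expressed, at 3.39 and 3.33 TPM. POU5F1, a factor of pluripotent cells, had 3.27 and 3.51 TPM, the only 1 of 10 pluripotent and germ cell genes above threshold, and came to 5.35 TPM on the median transcript length. The cancer-testis list, genes of the germ line that many tumours switch on, had 0 of 22 expressed and 18 silent, including PRAME and MAGEA4.

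Both the endothelial and the lung list held 1 gene far above the rest. CDH5, the cadherin of endothelial junctions, had 87.1 and 92.8 TPM from 2440 and 2761 counts, on chr16:66366622-66404786. The other 9 endothelial markers were below threshold in at least 1 library: PECAM1 had 0.388 and 0.235 TPM, VWF 0.921 and 0.907 TPM, ESAM 0.726 and 1.66 TPM, and KDR, TIE1 and ERG were silent. No other gene of the annotation overlaps the exons of CDH5. SCGB1A1, a secretoglobin of airway club cells, had 376 and 378 TPM from 1156 and 1236 counts, on chr11:62405103-62423195. Of the 8 genes on the lung list 3 were expressed, and only 1 at a threshold of 5 TPM. The surfactant genes SFTPC and SFTPA1 and the mucin MUC5AC of that list were silent. NKX2-1, a lung and thyroid factor, had 3.35 and 3.56 TPM. An unnamed gene on the opposite strand overlaps 16.5% of the exon bases of SCGB1A1, and its part in the counts was not tested.

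**Figure D2:**
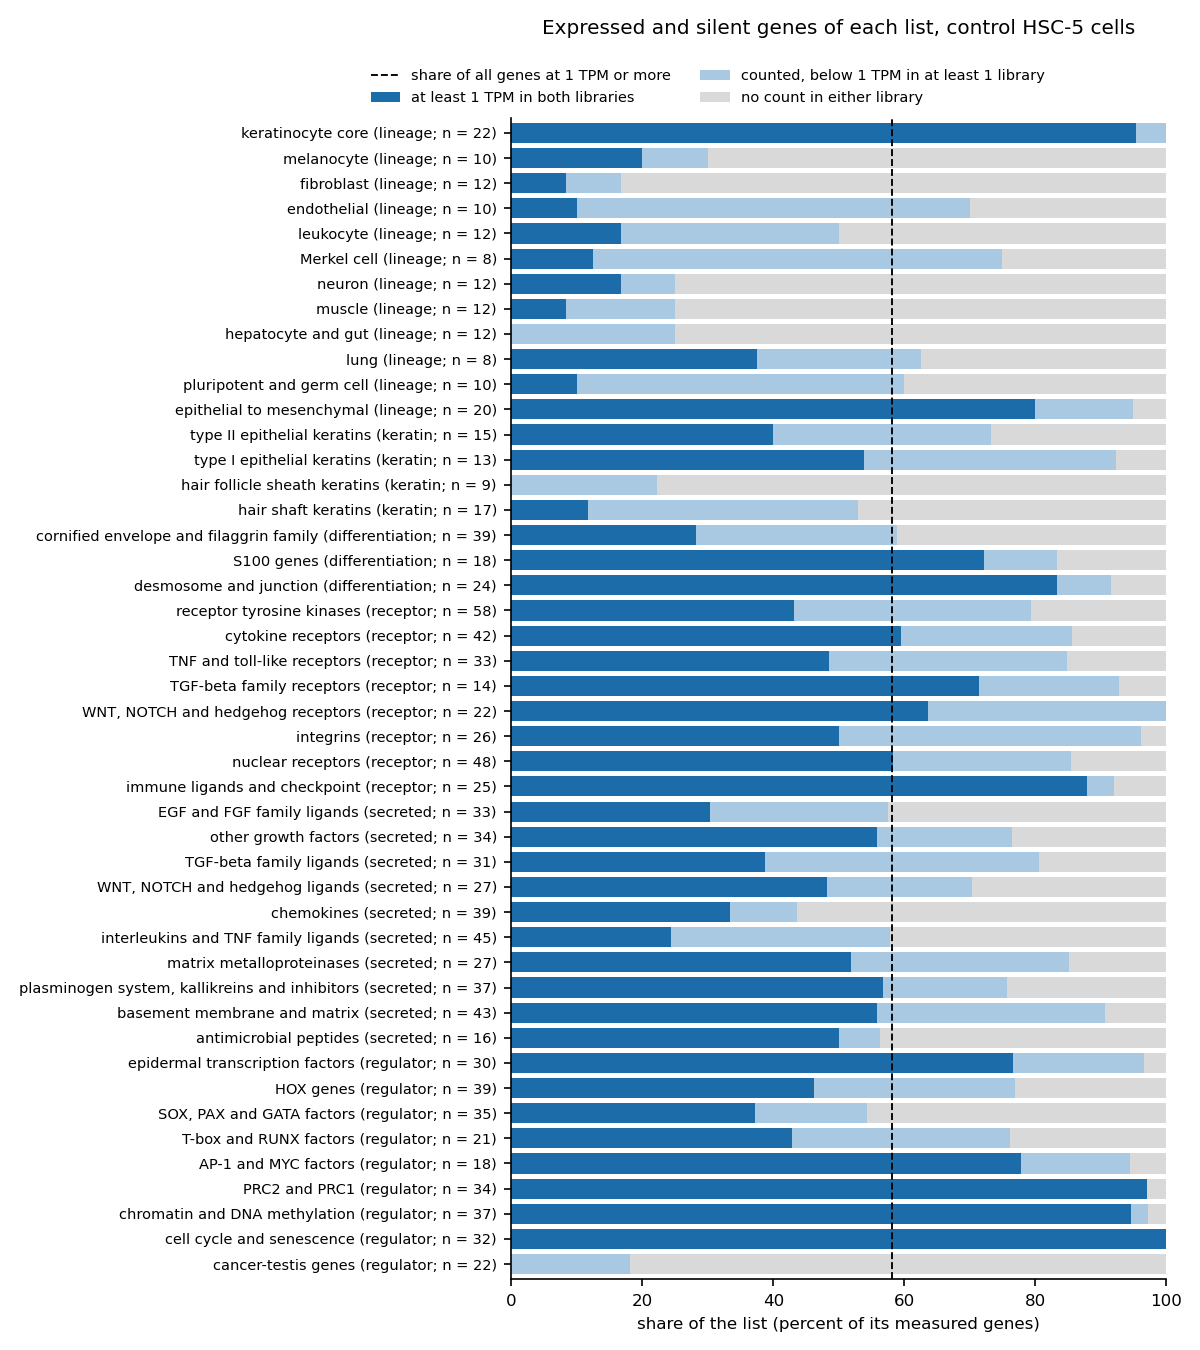
Share of the measured genes of each list (x axis, percent) that were expressed, counted but below 1 TPM in at least 1 library, or without a count, in 2 control HSC-5 libraries; the dashed line is the share of all genes that were expressed (58.1%). The keratinocyte core (21 of 22) and the cell cycle list (32 of 32) stand near the right edge, and cancer-testis genes (0 of 22) at the left.

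Epithelial identity was also read from adhesion genes. EPCAM, an epithelial surface adhesion molecule, had 342 and 384 TPM, CLDN4, a tight junction claudin, 254 and 231 TPM, and CDH1, E-cadherin, 84.5 and 93.4 TPM. ESRP1, an epithelial splicing regulator, had 173 and 194 TPM, and GRHL2, a factor that maintains epithelial genes, 83.3 and 83.2 TPM. Of the genes used to mark mesenchymal transition, VIM, the intermediate filament of mesenchymal cells, had 7 counts in the first library and 1 in the second, or 0.393 TPM over both with an exact Poisson interval of 0.170 to 0.775 TPM. FN1, fibronectin, had 0.354 and 0.235 TPM, and of the repressors of E-cadherin ZEB2 was silent and ZEB1 had 0 and 0.0554 TPM. The absence was not general: SNAI2, a repressor also made in basal keratinocytes, had 23.6 and 25.8 TPM, CDH2, N-cadherin, had 15.8 and 14.5 TPM, TWIST1 had 8.29 and 8.88 TPM, and SPARC, a secreted matrix protein often used as a stromal marker, had 284 and 304 TPM.

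The keratin profile joined a basal, a simple and an internal-epithelium pair. KRT5, the basal type II keratin, had 2218 and 2108 TPM, and KRT15, a basal type I keratin, had 1945 and 1899 TPM. KRT8 had 901 and 794 TPM and its simple-epithelium partner KRT18 had 1356 and 1193 TPM. KRT13, the type I keratin of internal stratified epithelium, had 839 and 837 TPM, while its type II partner KRT4 had 99.2 and 98.4 TPM. The members of these pairs were unequal: KRT18 exceeded KRT8 by 1.505-fold and 1.502-fold in the libraries on the union exon length, and KRT13 exceeded KRT4 by 8.46-fold and 8.51-fold. KRT5 made up 63.9% of the TPM of the 15 type II epithelial keratins and KRT8 25.0%; of the 13 type I keratins, KRT15 made up 45.6%, KRT18 30.2% and KRT13 19.9%. The sums of the 2 types were 3386 ± 156 TPM for type II and 4214 ± 157 TPM for type I (SD, n = 2). Of the 50-base stretches of the KRT18 transcript, 33.4% also occur in another gene, more in KRT8 than in any other. For KRT8 the share was 22.1%, with KRT8P3 sharing the most. The ratio and the shares of KRT8 and KRT18 therefore carry uncertainty in the division of reads.

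KRT14, the usual basal partner of KRT5, was all but missing. Its 14 counts over both libraries came to 0.773 TPM with an exact Poisson interval of 0.423 to 1.30 TPM, and made up 0.0184% of type I keratin TPM. KRT5 stood 3246-fold above it in the first library and 2457-fold in the second. Of the 50-base stretches of the KRT14 transcript, 23.8% also occur in another gene, most of them in KRT16, so counts could move between them; KRT16 itself had 11.1 and 9.43 TPM and KRT17 had 133 and 119 TPM. The order within pairs turned with the exon length used. On the median transcript length KRT15 came to 1804 TPM and KRT5 to 1457 TPM, and KRT8 to 1389 TPM and KRT18 to 1104 TPM, so that KRT15 exceeded KRT5 and KRT8 exceeded KRT18. On the longest transcript KRT8 came to 1445 TPM and KRT18 to 1369 TPM, while KRT5 still exceeded KRT15.

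Of the keratins of the cornifying epidermis KRT10 was expressed and KRT1 and KRT2 were not. KRT1, the type II keratin of the spinous layer, had no count, with an upper limit of 0.138 TPM, and its partner KRT10 had 28.3 and 32.5 TPM. KRT2, of the granular layer, had 0.0788 TPM in the first library and none in the second. Among keratins of wounded and hyperproliferative skin, KRT6A had 108 and 113 TPM, KRT6C 0.496 and 0.545 TPM, and KRT6B no count. These 3 genes are close copies, with 39.1% of the KRT6A transcript, 53.6% of KRT6C and 47.1% of KRT6B shared in 50-base stretches, so their division was uncertain. KRT80, a widely expressed type II keratin, had 147 and 141 TPM, KRT7, of simple and glandular epithelium, 20.5 and 18.8 TPM, and KRT19, a type I keratin without a tail domain, 12.4 and 12.7 TPM. Of the 17 hair shaft keratins 2 were expressed, KRT81 at 13.44 and 13.95 TPM and KRT86 at 2.67 and 3.15 TPM, which also share sequence with each other. The remaining epithelial keratins were below threshold. KRT78 had 0.757 and 0.712 TPM, KRT3, of the cornea, 0.816 and 0.538 TPM, KRT79, KRT20, KRT12, KRT9 and KRT23 at most 0.218 TPM in either library, and KRT76, KRT77 and KRT24 no count. None of the 9 hair follicle sheath keratins was expressed.

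**Figure D3:**
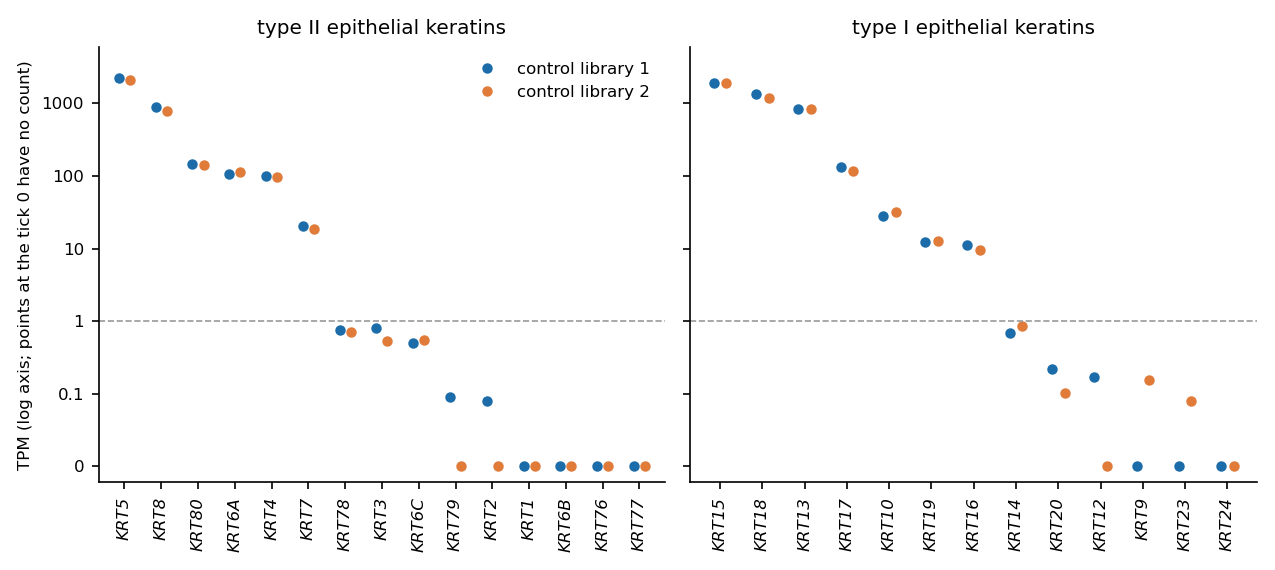
TPM (y axis, log scale, with points at the lowest tick where there was no count) of the 15 type II and 13 type I epithelial keratins (x axis, by falling mean) in the 2 control HSC-5 libraries; the dashed line is 1 TPM. KRT5 and KRT15 lead their types, and KRT14 (0.683 and 0.858 TPM) lies below the line.

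The keratin genes lie in 2 clusters, where expressed and silent genes were neighbours. The type II cluster (chr12:52168996-52952901, GRCh38) held 27 genes in the table, counting KRT18 at its end, of which 9 were expressed and 10 silent. KRT5 and KRT6A lay side by side there. Of the nearby genes, KRT75 and KRT6B on one side and KRT71 and KRT72 on the other had no count. The type I cluster (chr17:40654665-41624842) held 62 genes, with 7 expressed and 39 silent, most of them keratin-associated protein genes of hair. In it KRT14 lay between KRT9, with 0 and 0.156 TPM, and KRT16, at the same end as KRT15 and KRT13.

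Late differentiation genes were scarce. Of 39 cornified envelope and filaggrin family genes, 11 were expressed (28.2%, against 58.1% over all genes) and 16 silent. The median was 0.174 TPM, against 4.88 TPM over all genes. LORICRIN, the main protein of the cornified envelope, had no count, with an upper limit of 0.275 TPM, and FLG, which aggregates keratin filaments, had 0.445 and 0.517 TPM from 67 counts. IVL, an early envelope protein, had 4.31 and 3.56 TPM, and TGM1, the transglutaminase that links envelope proteins, 1.57 and 1.03 TPM. The highest member was CSTA, a cysteine protease inhibitor found in the envelope, at 216 and 220 TPM. Next came the plakins PPL, at 174 and 159 TPM, and EVPL, at 26.6 and 22.9 TPM, which tie the envelope to desmosomes. At a threshold of 5 TPM 4 genes of the list were expressed. CSTA came to 330 TPM on the length of its longest transcript.

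The epidermal differentiation complex (chr1:151982915-153632039, GRCh38) holds LORICRIN, FLG, IVL and many other envelope genes together with S100 genes. Of its 64 genes in the table, 16 were expressed and 36 silent, including each of the late cornified envelope (LCE) genes measured. Of the 18 S100 genes listed 13 were expressed, with a median of 32.7 TPM, and 7 of them were high or very high. S100A11 had 2323 and 2324 TPM, S100A2, a target of TP63 in keratinocytes, 1233 and 1191 TPM, and S100A14 1105 and 1060 TPM. S100A6 had 917 and 777 TPM and S100A10, the partner of annexin A2, 734 and 723 TPM. Of the inflammatory members, S100A9 had 64.6 and 51.3 TPM, its partner S100A8 only 1.77 and 3.60 TPM, and S100A7 no count. S100A2 came to 2042 TPM on the median transcript length.

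Junction genes were largely present: 20 of 24 were expressed (83.3%, against 58.1% over all genes), with a median of 59.2 TPM. Among the desmosomal cadherins DSG2, the widely expressed desmoglein, had 293 and 329 TPM, DSC3 56.1 and 61.7 TPM, and DSG3, of the basal layers, 44.2 and 51.1 TPM. DSG1, of the upper epidermis, had no count, with an upper limit of 0.0645 TPM, DSG4, of hair, had none either, and DSC1 had 0.399 and 0.0835 TPM. DSP, which links desmosomes to keratin, had 152 and 156 TPM. Thus the desmosomal cadherins of the upper epidermis, DSG1 and DSC1, were below threshold while DSC3 and DSG3 were expressed.

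Of 58 receptor tyrosine kinases, 25 were expressed (43.1%, against 58.1% over all genes) and 12 silent, with a median of 0.322 TPM. DDR1, a collagen receptor, had 222 and 213 TPM. EGFR, the epidermal growth factor receptor, had 129 and 137 TPM and its relatives ERBB2 75.8 and 72.2 TPM and ERBB3 28.99 and 30.01 TPM, while ERBB4 was silent. EGFR came to 264 TPM on the median transcript length. MET, the receptor of hepatocyte growth factor, had 106 and 107 TPM. FGFR3 had 78.2 and 65.0 TPM, FGFR2 26.3 and 26.7 TPM and FGFR4 7.11 and 5.74 TPM, whereas FGFR1 had 0.174 and 0.191 TPM. EPHA2 and EPHB4, receptors of ephrins, had 61.5 and 53.3 TPM and 51.8 and 47.9 TPM. The silent members included the receptors of stromal, endothelial and blood lineages PDGFRA, PDGFRB, KDR, KIT and FLT3.

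Cytokine receptors were expressed in 25 of 42 cases (59.5%), near the 58.1% over all genes. IFNGR1, of the interferon gamma receptor, had 91.8 and 105 TPM, IL4R, shared by interleukin-4 and interleukin-13, 83.0 and 83.8 TPM, and OSMR, the oncostatin M receptor, 60.1 and 63.3 TPM. IL2RA and IL2RG of lymphocytes were silent. Of 33 TNF and toll-like receptors 16 were expressed, led by TNFRSF12A, the receptor of TWEAK, at 310 and 260 TPM, TNFRSF21 at 175 and 175 TPM, LTBR at 162 and 143 TPM and TNFRSF1A, the main TNF receptor, at 112 and 112 TPM. FAS had 32.6 and 43.6 TPM and the TRAIL receptor TNFRSF10B 37.7 and 38.3 TPM. NGFR, a neurotrophin receptor, had 44.5 and 39.7 TPM. Among toll-like receptors TLR3, which binds double-stranded RNA, was the highest, at 4.68 and 6.30 TPM.

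Of the 14 TGF-beta family receptors 10 were expressed. TGFBR2, the ligand-binding subunit for TGF-beta, had 53.4 and 57.8 TPM, and TGFBR1, its signalling partner, 6.27 and 8.35 TPM. BMPR1A, a BMP receptor, had 12.8 and 15.2 TPM. The endothelial receptor ACVRL1 was silent. Of 22 WNT, NOTCH and hedgehog receptors 14 were expressed (63.6%, against 58.1% over all genes) and none was silent. FZD6, a WNT receptor, led with 81.6 and 94.3 TPM, LGR4, a receptor for R-spondins, had 42.6 and 52.9 TPM, and NOTCH1, NOTCH2 and NOTCH3 had 21.1 and 19.1, 24.7 and 24.6, and 26.6 and 24.7 TPM. NOTCH2 came to 52.9 TPM on the median transcript length. SMO, the signal transducer of the hedgehog pathway, had 0.0506 and 0 TPM.

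The integrin chains of keratinocytes led their list. ITGB1, the common beta chain, had 411 and 463 TPM, and its partners ITGA3, a laminin receptor chain, and ITGA2, a collagen receptor chain, had 207 and 188 TPM and 68.3 and 79.9 TPM. ITGAV had 44.9 and 54.7 TPM and ITGB6, its epithelial partner, 33.4 and 40.7 TPM. Of 26 integrins 13 were expressed (50%, against 58.1% over all genes). ITGAX and ITGAM of myeloid cells had at most 0.131 and 0.0798 TPM in either library.

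Nuclear receptors were led by a pair of retinoid receptors. RXRA, the shared partner of many of them, had 237 and 219 TPM, RARG, the main retinoic acid receptor of epidermis, 124 and 118 TPM, RARA 22.7 and 23.7 TPM, and VDR, the vitamin D receptor, 37.7 and 36.9 TPM. NR3C1, the glucocorticoid receptor, had 26.9 and 30.6 TPM. ESR1, the oestrogen receptor, had 1.24 and 1.19 TPM, close to threshold, and PGR, the progesterone receptor, and PPARG, of fat cells, were silent. In all, 28 of 48 were expressed (58.3%), near the 58.1% over all genes, and 7 were silent.

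The genes by which T and natural killer cells see a target were mostly present, at 22 of 25 (88%, against 58.1% over all genes). B2M, the light chain of class I molecules, had 720 and 821 TPM, HLA-C 608 and 560 TPM and HLA-B 164 and 160 TPM; these class I heavy chain genes are close relatives and polymorphic, so the division of reads among them was uncertain. CD276, a checkpoint ligand, had 97.6 and 90.7 TPM, and CD47, which restrains phagocytes, 46.9 and 58.0 TPM. The ligands of the receptor NKG2D, ULBP3, MICA, MICB and ULBP2, had between 37.7 and 48.5 TPM in each library. CD274, which encodes PD-L1, had 2.98 and 3.10 TPM, and PDCD1LG2 and CD80 were silent. On the median transcript length B2M came to 1219 TPM and HLA-B to 260 TPM.

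Growth factor genes were expressed in part. Of 33 EGF and FGF family ligands, 10 were expressed (30.3%, against 58.1% over all genes) and 14 silent, with a median of 0.191 TPM. Of 34 other growth factors 19 were expressed (55.9%), near the share over all genes. AREG, an EGFR ligand, had 41.4 and 39.96 TPM, TGFA 18.6 and 19.5 TPM and HBEGF 8.49 and 9.71 TPM. EREG, another EGFR ligand, had 0.615 and 1.00 TPM, and EGF itself 0.349 and 0.693 TPM. The highest of the other growth factors were MDK, the heparin-binding factor midkine, at 262 and 235 TPM, VEGFA, an angiogenic factor, at 102 and 102 TPM, and CSF1, of macrophages, at 82.2 and 80.5 TPM; HGF, IL6, CSF2 and OSM were silent. On the median transcript length TGFA came to 62.6 TPM, VEGFA to 232 TPM and CSF1 to 139 TPM.

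Among TGF-beta family ligands GDF15, a stress-induced hormone, had 179 and 145 TPM, BMP7 76.0 and 67.1 TPM, BMP4 32.3 and 29.3 TPM, TGFB2 24.6 and 30.3 TPM and TGFB1 18.8 and 17.8 TPM. Of the 31 genes, 12 were expressed. Of the WNT, NOTCH and hedgehog ligands 13 of 27 were expressed, led by a pair of epithelial ligands: JAG1, a NOTCH ligand, had 102 and 105 TPM, and WNT7B, a WNT ligand of epithelia, had 97.7 and 86.9 TPM. WNT10A, a WNT ligand of skin appendages, had 12.4 and 11.3 TPM. WNT1, WNT2, DLL3 and DLL4 were silent. On the median transcript length BMP7 came to 109 TPM and WNT7B to 140 TPM.

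Chemokines and interleukins were sparse. Of 39 chemokines 13 were expressed (33.3%, against 58.1% over all genes). The silent ones numbered 22, where 23.1% of all genes were silent. CXCL16, a membrane-bound chemokine, had 147 and 151 TPM and CX3CL1, also membrane-bound, 66.6 and 62.1 TPM. CXCL8, which draws neutrophils, had 38.6 and 42.4 TPM, whereas CXCL9, CXCL10, CXCL12 and CCL27 had no count. CXCL17 had 4.36 and 9.28 TPM. Of 45 interleukin and TNF family ligands 11 were expressed (24.4%). TNFSF10, the death ligand TRAIL, had 172 and 199 TPM and TNFSF9 110 and 112 TPM. IL18, an inflammasome cytokine of epithelium, had 73.1 and 80.6 TPM, and IL1RN, the antagonist of interleukin-1, 38.8 and 43.8 TPM. IL1B had 10.7 and 8.74 TPM and IL1A 0.713 and 1.26 TPM. TNF, LTA, IL17A and FASLG were silent.

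A set of 46 receptor and ligand pairs was read for both partners. In 20 both partners were expressed, in 18 the receptor alone, in 7 the ligand alone and in 1, CXCR4 with CXCL12, neither. Pairs with both included EGFR with AREG, TGFA and HBEGF, AXL at 15.7 and 14.2 TPM with GAS6 at 66.3 and 59.8 TPM, and NOTCH1 with JAG1. MET, OSMR, TNFRSF1A, FAS and CD40 were expressed while their ligands HGF, OSM, TNF, FASLG and CD40LG were silent. The reverse held for KDR with VEGFA, KIT with KITLG (24.9 and 34.2 TPM) and PDGFRA with PDGFA (22.8 and 22.6 TPM), whose receptors were silent, and CSF1R had 0.0475 and 0.134 TPM beside its ligand CSF1. FGF2, at 8.75 and 10.7 TPM, stood beside FGFR1 below threshold, and FGF2 also binds other FGF receptors. These are RNA levels; protein and binding were not measured.

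**Figure D4:**
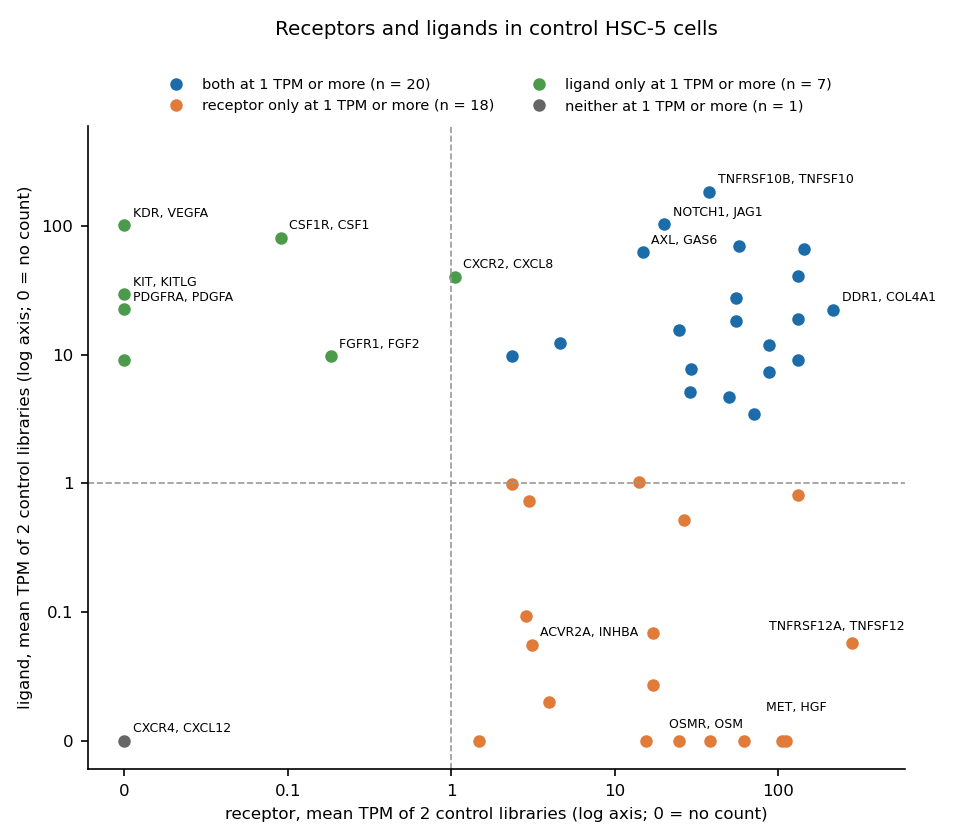
Mean TPM of the receptor (x axis, log scale) and of the ligand (y axis, log scale) for 46 pairs in 2 control HSC-5 libraries, with pairs without a count at the tick 0; dashed lines mark 1 TPM and colours show which partner reached 1 TPM in both libraries. Receptors without their ligand (18) lie below the horizontal line, apart from those whose ligand mean is near 1 TPM, and ligands without their receptor (7) lie at the left, with CXCR2 near 1 TPM.

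Some proteases and some of their inhibitors were expressed. Of 27 matrix metalloproteinases and their inhibitors 14 were expressed (51.9%, against 58.1% over all genes). MMP14, the membrane-bound collagenase, had 125 and 120 TPM, MMP10 47.1 and 54.6 TPM and MMP1, an interstitial collagenase, 41.3 and 42.2 TPM. The inhibitor TIMP1 had 120 and 106 TPM, TIMP2 70.0 and 75.7 TPM and TIMP3 44.8 and 48.5 TPM. MMP9, a gelatinase, had 0.567 and 0.305 TPM and MMP13 had 0.468 and 0.189 TPM. PLAU, the urokinase protease, had 294 and 285 TPM, and its receptor PLAUR 17.4 and 13.2 TPM. PLAU overlaps another gene in the annotation. SLPI, a secreted inhibitor of leukocyte elastase, was the highest of the 37 genes of the list that also holds PLAU, at 1057 and 1079 TPM. Of those 37 genes 21 were expressed (56.8%), near the share over all genes. SPINT2 and SPINT1, inhibitors of membrane serine proteases, had 734 and 721 TPM and 233 and 227 TPM.

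The matrix genes expressed included those of the epidermal basement membrane. LAMB3 and LAMA3, laminin chains laid down under keratinocytes, had 187 and 177 TPM and 29.5 and 30.6 TPM. COL7A1, of anchoring fibrils, had 26.1 and 24.7 TPM and COL4A1, of basement membrane, 23.5 and 21.3 TPM. TGFBI, an adhesion protein of the matrix, had the highest level on this list, at 603 and 584 TPM, and THBS1, thrombospondin, had 182 and 175 TPM. Of 43 genes 24 were expressed (55.8%), near the 58.1% over all genes, and COL1A2, COL3A1, COL6A3 and NID2 were silent. Antimicrobial peptide genes were expressed in 8 of 16 cases, led after SLPI by LCN2, which binds bacterial siderophores, at 177 and 186 TPM, while the beta-defensin genes DEFB4A and DEFB103A had no count and RNASE7 had 4.55 and 4.16 TPM.

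Regulators of epidermis were present in 23 of 30 cases (76.7%, against 58.1% over all genes), with a median of 12.3 TPM. ELF3, an epithelial ETS factor, led with 403 and 379 TPM. TFAP2C, an AP-2 factor, had 75.1 and 79.2 TPM and KLF5, of proliferating epithelium, 59.3 and 77.4 TPM. KLF4, of the upper layers, had 16.1 and 18.0 TPM. The factors below threshold included GATA3, of hair follicle and epidermis, at 0.849 and 0.799 TPM, HOPX at 0.387 and 0.146 TPM, PRDM1 at 0.267 and 0.252 TPM, LHX2, MAF and TFAP2B, the last of them silent.

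AP-1 and MYC genes were expressed in 14 of 18 cases. FOS, an immediate early subunit of AP-1, had 964 and 985 TPM, far above its partners JUNB at 114 and 93.6 TPM and JUN at 72.9 and 69.8 TPM. FOSB had 87.2 and 95.4 TPM, and ATF3, a stress-induced member, 192 and 141 TPM. MYC had 157 and 147 TPM, while MYCN was silent.

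Among SOX, PAX and GATA factors, 13 of 35 were expressed and 16 silent, with a median of 0.0110 TPM. SOX2, a factor of stem cells and of the foregut and its squamous cancers, had 85.3 and 98.5 TPM, from 1132 and 1389 counts. SOX15, of keratinocytes, had 53.4 and 45.9 TPM, SOX13 51.7 and 48.5 TPM, and PAX9, of oral epithelium and foregut, 15.3 and 19.5 TPM. GATA6 had 9.21 and 9.80 TPM and GATA2 7.61 and 6.78 TPM. The neural and glial factors SOX1, SOX3 and SOX10, the endodermal SOX17 and the developmental PAX1, PAX2, PAX6 and PAX7 had no count. Of T-box and RUNX genes 9 of 21 were expressed, with RUNX1 at 10.4 and 12.6 TPM and RUNX3 at 0.260 and 0.245 TPM, and TBXT, of mesoderm, silent.

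HOX genes, which encode position along the body axis, were expressed in 18 of 39 cases (46.2%, against 58.1% over all genes). The expressed genes were spread unevenly over the 4 clusters. In the HOXA cluster (chr7:27092993-27200106, GRCh38) 10 of the 12 genes in the table were expressed, among them HOXA4 at 8.56 and 9.18 TPM and HOXA13 at 2.75 and 3.30 TPM. HOXA10 was the highest HOX gene, at 33.7 and 38.6 TPM, and HOXA7 was below threshold, at 0.750 and 0.442 TPM, as was a gene in the cluster without a HOX name, which had no count. In the HOXB cluster (chr17:48528526-48729178) only the adjacent HOXB6, at 4.06 and 3.64 TPM, and HOXB7, at 19.3 and 22.5 TPM, were expressed, with HOXB5 and HOXB8 on either side at no count. In the HOXC cluster (chr12:53938765-54056030) HOXC10, at 12.6 and 12.5 TPM, HOXC13, a gene of hair and nail, at 7.66 and 7.80 TPM, and HOXC4, at 4.59 and 3.77 TPM, were expressed. In the HOXD cluster (chr2:176092891-176190907) the run HOXD9, HOXD10 and HOXD11 was expressed, at 2.02 and 2.76, 10.4 and 10.5, and 12.97 and 11.63 TPM, and HOXD13, HOXD3 and HOXD1 were silent.

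**Figure D5:**
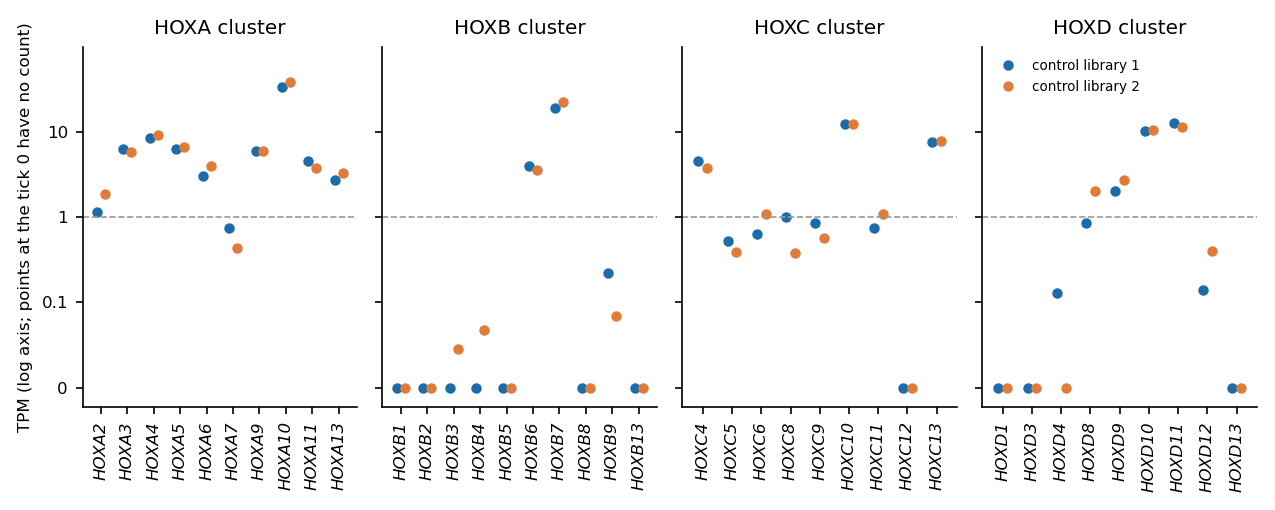
TPM (y axis, log scale, with points at the lowest tick where there was no count) of HOX genes of each cluster (x axis, in number order; not every gene of a cluster is plotted) in the 2 control HSC-5 libraries; the dashed line is 1 TPM. Of the HOXA genes plotted only HOXA7 lies below the line, and of the HOXB genes only HOXB6 and HOXB7 lie above it.

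The Polycomb machinery was almost complete, with 33 of 34 genes expressed (97.1%, against 58.1% over all genes) and a median of 20.2 TPM. Of the PRC2 core, EZH2 had 72.0 and 75.1 TPM, SUZ12 45.4 and 58.6 TPM, EED 38.8 and 42.1 TPM, and the histone-binding subunits RBBP7 447 and 451 TPM and RBBP4 57.8 and 61.9 TPM. EZH1, the second catalytic subunit, had 14.4 and 13.8 TPM, so that EZH2 exceeded it by 4.99-fold and 5.43-fold. The accessory subunits PHF1 (50.04 and 48.72 TPM), PHF19 (38.8 and 36.2 TPM), AEBP2 (24.5 and 28.6 TPM) and JARID2 (8.24 and 7.97 TPM) were all expressed, and EZHIP, an inhibitor of PRC2 made in the germ line, was the silent member. Among PRC1 genes RING1, an E3 ligase, had 44.3 and 41.2 TPM, RNF2, its relative, 9.08 and 10.5 TPM, and CBX6, a chromodomain reader, 88.0 and 80.5 TPM. RBBP4 came to 187 TPM on the median transcript length.

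Of 37 other chromatin genes 35 were expressed (94.6%, against 58.1% over all genes). HDAC1, a histone deacetylase, had 455 and 451 TPM, DNMT1, the maintenance DNA methyltransferase, 115 and 106 TPM, and UHRF1, which guides it, 63.7 and 58.3 TPM. The de novo enzymes were lower, DNMT3B at 11.4 and 9.97 TPM and DNMT3A at 2.57 and 2.52 TPM, and their cofactor DNMT3L was silent. KDM6A, which removes the PRC2 mark, had 22.5 and 23.4 TPM, and BAP1 and ASXL1, of the complex that removes the PRC1 mark, had 61.3 and 55.0 TPM and 52.5 and 52.3 TPM. Each of the chromatin remodelling genes SMARCA4, SMARCB1 and ARID1A was expressed, between 41.7 and 52.9 TPM in each library. SMARCB1 came to 107.8 TPM on the median transcript length.

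All 32 cell cycle genes were expressed, against 58.1% of all genes, with a median of 40.5 TPM. PCNA, of the replication fork, had 875 and 867 TPM, CCNB1, the mitotic cyclin, 479 and 489 TPM, TOP2A 334 and 362 TPM, and MKI67, the marker of cycling cells, 154 and 159 TPM. CCND1, cyclin D1, had 131 and 137 TPM and its kinases CDK4 and CDK6 349 and 340 TPM and 16.8 and 19.1 TPM; CDK4 shares exon sequence with a neighbouring gene. RB1, the retinoblastoma protein, had 42.8 and 54.6 TPM and CDKN1A, a cyclin-dependent kinase inhibitor, 45.0 and 42.5 TPM. At the tumour suppressor locus on chromosome 9 (chr9:21802543-22009363, GRCh38) MTAP had 22.5 and 24.7 TPM, CDKN2A 7.08 and 5.87 TPM and CDKN2B 5.07 and 5.26 TPM, so RNA of each of these 3 adjacent genes was present.

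Over the 46 lists together, 550 of 1098 genes were expressed (50.1%) and 282 were silent, against 58.1% expressed over all genes. By kind, 65.9% of the regulators were expressed, 57.1% of the receptors, 54.3% of the differentiation and junction genes, 43.3% of the secreted factors, 34.5% of the lineage markers and 27.8% of the keratins. Many lists were chosen for genes of other tissues, so these shares describe the lists and not the cells alone. A gene on several lists was counted once in the total.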

How the data were processed

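The table holds whole-number read counts per gene, not normalized, as the authors deposited it. Per the submitters' processing notes, FastQC, STAR and DESeq were used with the hg38 build. Not given in the sources used here were tool versions, the counting tool, its annotation and its strand setting. The table has 2 unnumbered control columns, called first and second library in column order, and no row without a gene name. Of 20294 genes, 19873 were matched by symbol and 304 through the identifier of a renamed gene to GENCODE release 29; 117 were not matched and held 0.0637% of control counts. TPM was computed from union exon length with pandas 2.3.3 and numpy 2.4.6 (Python 3.11.15); figures used matplotlib 3.10.9. TMM of edgeR 4.0.16 and size factors of DESeq2 1.42.0 (R 4.3.3) served as alternatives only. Intervals are exact Poisson or Wilson (scipy 1.17.1), at 95%. On counts simulated from the control libraries, 99.1% of 20177 genes kept their side of 1 TPM. The simulation held sampling noise only, and genes at 0 could not change side in it. In the real libraries 357 genes (1.77%) had at least 1 TPM in 1 library only.

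The lists and members were chosen with earlier results of these data known. The text names the 15 most abundant protein-coding genes, every epithelial keratin, up to 8 of the highest and up to 8 silent members of each list, members of pairs and neighbours in clusters; other members, such as VIM, FN1, FLG, FGFR1 and MMP9, were named after their values were seen. Alternatives were other thresholds, lengths, scalings, a count minimum of 10, a shorter promoter window and each library alone. The 6 libraries of edited cells entered only the depth, the EZH2 levels and the check of replicate pairs. Results of some genes are not reported here.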

Additional observations from a re-analysis of the deposited data

How the results depend on the processing

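No paired analysis was possible because the levels come from no test and the columns carry no replicate numbers. The number of expressed genes, 11722, lay between 9899 (threshold of 5 TPM) and 12310 (0.5 TPM) under the alternatives, and at 11881 and 11920 in each library alone. Silent genes numbered 5267 in the first library alone and 5210 in the second, against 4655. High or very high genes numbered 2178 instead of 1841 with mitochondrially encoded and ribosomal protein genes left out of the total. The share of counts in the 100 most abundant genes was 16.4% in the first library alone and 15.9% in the second. The CpG-rich share of silent genes was 29.04% over 100 bases instead of 25.9% over 250. Of the 46 lists, the number expressed moved in 16 at 5 TPM, in 2 at 0.5 TPM and in 1, endothelial, without the first library. Of 382 named genes, the median transcript length, an alternative chosen after seeing the data, moved 31 by over 1.5 times and the longest transcript 3. Leaving out the first or second library moved 15 and 24 by as much, most of them with few counts. Smaller changes were common. Beyond the spread between the 2 libraries, 263 of 382 levels moved on the median transcript length and 185 on the longest. With mitochondrially encoded and ribosomal protein genes left out of the total, 273 of 373 did. Depth limits levels below 1 TPM, and the exon length used limits comparisons between genes.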

Other observations

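Beyond the lists of the report, genes of oxidative stress defence and detoxification were abundant in the control cells. These and the next groups were chosen after their values were seen, so their counts describe them only. Of 28 such genes 27 were expressed, with a median of 174 TPM against 4.88 TPM over all genes. PRDX1, a peroxiredoxin, had 3156 and 3202 TPM, GSTP1, a glutathione transferase, 2114 and 1929 TPM, and TXN, thioredoxin, 1093 and 1064 TPM. The aldo-keto reductases AKR1C2 (975 and 1080 TPM), AKR1B10 (661 and 705 TPM) and AKR1C3 (404 and 439 TPM) were high, as were GPX2, a glutathione peroxidase of epithelia, at 575 and 593 TPM, and the quinone reductase NQO1, at 485 and 502 TPM. AKR1C genes are close copies, so their division was uncertain. The transcription factor NFE2L2, which drives many of these genes, had 115 and 124 TPM, its inhibitor KEAP1 54.1 and 51.9 TPM, and GSTM3 alone was below threshold, at 0.853 and 0.507 TPM.

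Of 16 genes of nutrient uptake and glycolysis, 14 were expressed. SLC7A5 and SLC3A2, the chains of an amino acid transporter, had 1199 and 1035 TPM and 768 and 691 TPM. SLC2A1, the glucose transporter of most dividing cells, had 281 and 268 TPM, whereas SLC2A3 had 0.338 and 0.273 TPM and SLC2A2, of liver, no count. Of 20 surface antigens 18 were expressed, with TFRC, the transferrin receptor, at 664 and 762 TPM, CD9, a tetraspanin, at 376 and 377 TPM, CD44, a hyaluronan receptor, at 192 and 202 TPM, and PROM1, used as a stem cell marker, at 0.0852 and 0.0401 TPM. Among apoptosis and telomerase genes BIRC5, survivin, had 153 and 147 TPM and MCL1 164 and 189 TPM, while BCL2 had 0.951 and 1.08 TPM. TERT, the catalytic subunit of telomerase, was just above threshold at 1.37 and 1.11 TPM, and BCL2A1 had no count.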
